A study of Homo sapiens with 9 samples.

Results

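The genes described here are 8 core genes of the PI3K-Akt-mTOR pathway, *PIK3CA*, *PIK3CB*, *PIK3R1*, *AKT1*, *TSC2*, *MTOR*, *FOXO1* and *FOXO3*. They were taken by name as a list of pathway components, and all 8 were found by their Ensembl identifiers among the 60660 genes of the deposited count matrix. The matrix holds RNA-seq counts of 9 libraries of OVCAR3, an established cell line of high-grade serous ovarian carcinoma, in 3 groups (Control, CTCFL-OE, CTCFL-KD) of 3 biological replicates. The study asked which transcripts change when *CTCFL* (also called BORIS), a germline paralog of the chromatin insulator *CTCF* that many ovarian carcinomas express, is raised or lowered.

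Class I PI3K is a lipid kinase made of a catalytic and a regulatory subunit, and it is activated by receptor tyrosine kinases and their adaptors. Its lipid product brings AKT to the plasma membrane, where active AKT phosphorylates TSC2, which releases mTOR complex signalling towards protein synthesis, and FOXO factors, which are then kept out of the nucleus. The pathway is often activated in ovarian carcinoma, and most of this control acts on proteins and their phosphorylation, which RNA counts do not measure.

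All 9 cultures were grown in RPMI-1640 containing 0.01 mg/ml of bovine insulin and 20% serum, at 37 °C and 5% CO2, so insulin, an activator of the pathway, was present in every group. CTCFL-OE cells received 2 µg of the plasmid pCpGfree-vitroHBORIS, which carries the *CTCFL* open reading frame, and Control cells the plasmid pCpGfree-vitroHLacZ; both were collected 48 h after transient transfection. *CTCFL* was knocked down in CTCFL-KD, whose RNA came from an earlier series of experiments. For CTCFL-OE and Control, each biological replicate pooled 3 technical replicates. Control carried a plasmid and no knockdown reagent. In CTCFL-KD the loss of *CTCFL*, the delivery of the knockdown reagent and the separate experiment therefore cannot be told apart. Both comparisons used the same 3 Control libraries, and chance deviations of these libraries enter both. In bulk RNA, fewer cells with a transcript and less of it per cell cannot be told apart.

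Total counts were 19006695, 24490080 and 19044832 for the Control libraries, 20178085, 18104845 and 17249451 for those of CTCFL-OE and 14332622, 16605777 and 17995196 for those of CTCFL-KD. Levels are given as CPM, counts relative to the library size after TMM scaling, for comparisons of 1 gene across libraries, and as TPM, which also divides by transcript length, for comparisons between genes. CTCFL-KD replicate 1 stood apart from the other libraries. It had the lowest total and the lowest TMM factor (0.775), and its long transcripts were low against the other 2 CTCFL-KD libraries. Over 15327 genes, the Spearman correlation between transcript length and the log2 ratio to the other 2 libraries was -0.58 in this library, with a median log2 ratio of 0.87 in the shortest and -0.69 in the longest of 5 equal bins of genes. Of the 8 pathway genes, 7 belong to the longest bin and *AKT1* to the middle one, so their log2 fold changes in CTCFL-KD vs Control are given with and without this library. Some values of other genes, lists and markers in CTCFL-KD are given with all libraries only. Mitochondrial transcripts took 6.52, 6.31 and 6.16% of the counts of the Control libraries, 7.40, 12.4 and 14.9% of those of CTCFL-OE and 11.8, 9.64 and 7.80% of those of CTCFL-KD. Every treated library lay above every Control library in this share, and its part in the results below was not tested.

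**Figure D1:**
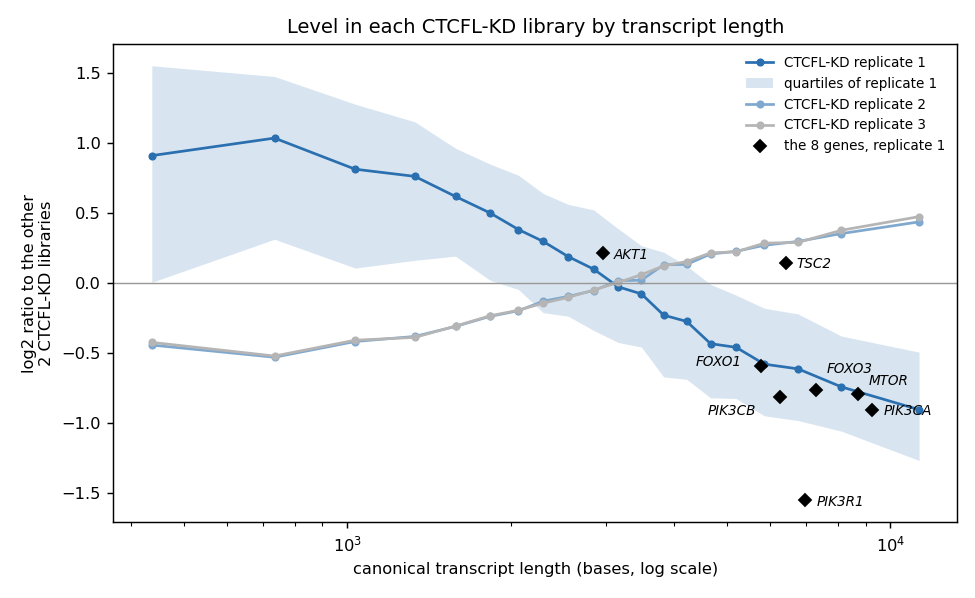
Median log2 ratio of each CTCFL-KD library to the other 2, in 20 bins of genes ordered by transcript length (log axis, bases), with quartiles shaded for replicate 1 and the 8 genes as diamonds for replicate 1. The ratio of replicate 1 falls with length, and *PIK3R1* at -1.55 lies below the shaded quartiles of genes of its length while *TSC2* at 0.15 lies above them.

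*CTCFL* itself had 6, 9 and 10 counts in Control; in CTCFL-OE it had 36, 34 and 72 counts, and in CTCFL-KD 0, 1 and 0. The 3 groups did not overlap, and the counts were low in every library. *CTCFL* was higher in CTCFL-OE at a log2 fold change of 2.73 (SE 0.48, adjusted p = 0.0287 by the quasi-likelihood test of edgeR, Benjamini-Hochberg adjusted), a call that was lost without Control replicate 1, 2 or 3 (adjusted p from edgeR 0.169, 0.176 and 0.125). In CTCFL-KD all libraries were at 3 counts or fewer, and its level lay below that of Control at least 1.89-fold, against a floor of 3 counts per library (adjusted p from edgeR 0.0162; 0.0551 without CTCFL-KD replicate 3). *CTCF*, the somatic paralog, had 77.4, 85.2 and 79.5 CPM in Control, 77.9, 68.2 and 64.8 CPM in CTCFL-OE and 54.2, 64.0 and 62.8 CPM in CTCFL-KD. *CTCF* had a log2 fold change of -0.20 (adjusted p from edgeR 0.532) in CTCFL-OE and -0.42 (adjusted p from edgeR 0.0566) in CTCFL-KD, where it was called in 6 of 20 alternatives: without CTCFL-KD replicate 1 (-0.34, adjusted p 0.0257), without CTCFL-OE replicate 1 (-0.43, adjusted p 0.0356), by DESeq2 (-0.44, adjusted p 0.0158) and in the 3 fits with a length and GC offset (adjusted p from edgeR down to 0.0107).

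In Control, *AKT1* had the highest level of the 8 genes per transcript length, at 75.2 ± 2.74 TPM (SD, n = 3), followed by *TSC2* at 48.6 ± 1.38 and *MTOR* at 46.2 ± 3.20 TPM. *FOXO3* (27.6 ± 1.87 TPM) and *PIK3CB* (27.5 ± 1.94 TPM) came next, and *PIK3CA* (8.51 ± 0.665 TPM), *PIK3R1* (8.11 ± 0.959 TPM) and *FOXO1* (6.95 ± 0.247 TPM) were lowest. Within this order, *TSC2* and *MTOR*, *FOXO3* and *PIK3CB*, *PIK3CA* and *PIK3R1*, and *PIK3R1* and *FOXO1* did not differ beyond their spread over libraries. The order depends on the length used: with the summed length of all annotated exons in place of the canonical transcript, *MTOR* (46.2 TPM), *FOXO3* (40.3 TPM) and *PIK3CB* (33.7 TPM) lay above *AKT1* (31.1 TPM) and *TSC2* (23.3 TPM) in Control, and *FOXO1* (10.3 TPM) above *PIK3CA* (7.03 TPM) and *PIK3R1* (5.31 TPM). With the canonical transcript, *AKT1*, *TSC2* and *MTOR* also ranked as the top genes in CTCFL-OE (61.5 ± 8.58, 53.1 ± 2.96 and 45.1 ± 4.66 TPM) and in CTCFL-KD (43.6 ± 10.5, 34.2 ± 8.93 and 28.7 ± 14.8 TPM), where replicate 1 had the lowest TPM of each. With that length *FOXO1* had the lowest mean in all 3 groups, with 3.42 ± 0.263 TPM in CTCFL-OE and 3.25 ± 1.56 TPM in CTCFL-KD. The TPM ratios between genes given below use the canonical transcript only. Their size depends on that choice, while their relative change between groups does not.

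Counts were compared in 1 edgeR fit to all 9 libraries, and 17794 genes, the 8 pathway genes among them, passed the low-count filter. A gene was called at an adjusted p under 0.1 in CTCFL-OE and under 0.05 in CTCFL-KD. In CTCFL-OE vs Control, 1 of the 8 genes was called (12.5%), *FOXO1*, against 3.15% of all genes tested. None of the 8 was called higher (background 1.99%) and 1 was called lower (background 1.16%). In CTCFL-KD vs Control, 3 of the 8 were called (37.5%), *FOXO1*, *PIK3CB* and *AKT1*, against 38.2% of all genes, a share that in this fit does not set the 8 genes apart. All 3 were lower (background 16.8%) and none was higher (background 21.4%). With an absolute log2 fold change over 1 added, 0 of the 8 were called by edgeR in either comparison (background 2.07% in CTCFL-OE and 23.2% in CTCFL-KD); DESeq2 also called 0, and 0 passed that fold at an unadjusted p under 0.05. With all libraries, the median log2 fold change of the 8 genes was -0.23 in CTCFL-OE, where that of all genes tested was -0.010. It was -0.46 in CTCFL-KD, where that of all genes was 0.077. Without CTCFL-KD replicate 1, the values in CTCFL-KD were -0.68 for *FOXO1*, -0.55 for *PIK3CB*, -0.53 for *AKT1* and -0.25 for *PIK3CA*. They were -0.25 for *MTOR*, -0.24 for *TSC2*, -0.18 for *FOXO3* and 0.62 for *PIK3R1*. The median of all genes was then 0.014. The CTCFL-OE libraries did not overlap the Control libraries for 4 of the 8 genes (background 37.1%), with *AKT1*, *FOXO1* and *FOXO3* below and *TSC2* above. In CTCFL-KD this held for 7 of the 8 (background 56.3%), all below Control, and *PIK3R1* overlapped. Both backgrounds count genes above and below Control together, and the share below Control alone is not given.

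Without CTCFL-KD replicate 1, which also enters the shared estimate of the spread, 2 of the 8 genes were called in CTCFL-OE, *FOXO1* and *FOXO3*, and 5040 of 18393 genes in all (27.4%). In CTCFL-KD, 4 of the 8 were then called, *AKT1*, *PIK3CB* and *FOXO1* lower and *PIK3R1* higher, against 9170 of all genes (49.9%). Where each library's trend with length and GC content was instead entered as an offset, 2 of the 8 were called in CTCFL-OE (*FOXO1* and *FOXO3*; 10.4% of all genes) and 6 in CTCFL-KD, all but *PIK3CA* and *PIK3R1* (46.0% of all genes). The offset also removes differences between groups that run with length, and it moved the median log2 fold change of all genes in CTCFL-KD from 0.077 to -0.045. *FOXO1* was called lower in both comparisons under all 3 of these fits. The call in CTCFL-OE did not hold with fewer libraries. By edgeR, 0 of the 8 were called without Control replicate 1, 2 or 3 or without CTCFL-OE replicate 2 or 3. In these fits between 44 and 117 genes were called in all, and the log2 fold change of *FOXO1* stayed between -0.95 and -0.90. In CTCFL-KD, 1 of the 8 was called without Control replicate 1, 2 or 3 (background 26.8, 26.7 and 25.8%), and 2 without CTCFL-OE replicate 2 or CTCFL-KD replicate 2 (background 34.6% in both); without CTCFL-KD replicate 3 (background 34.8%) the 3 called were *PIK3CA*, *PIK3CB* and *FOXO1*.

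**Figure D2:**
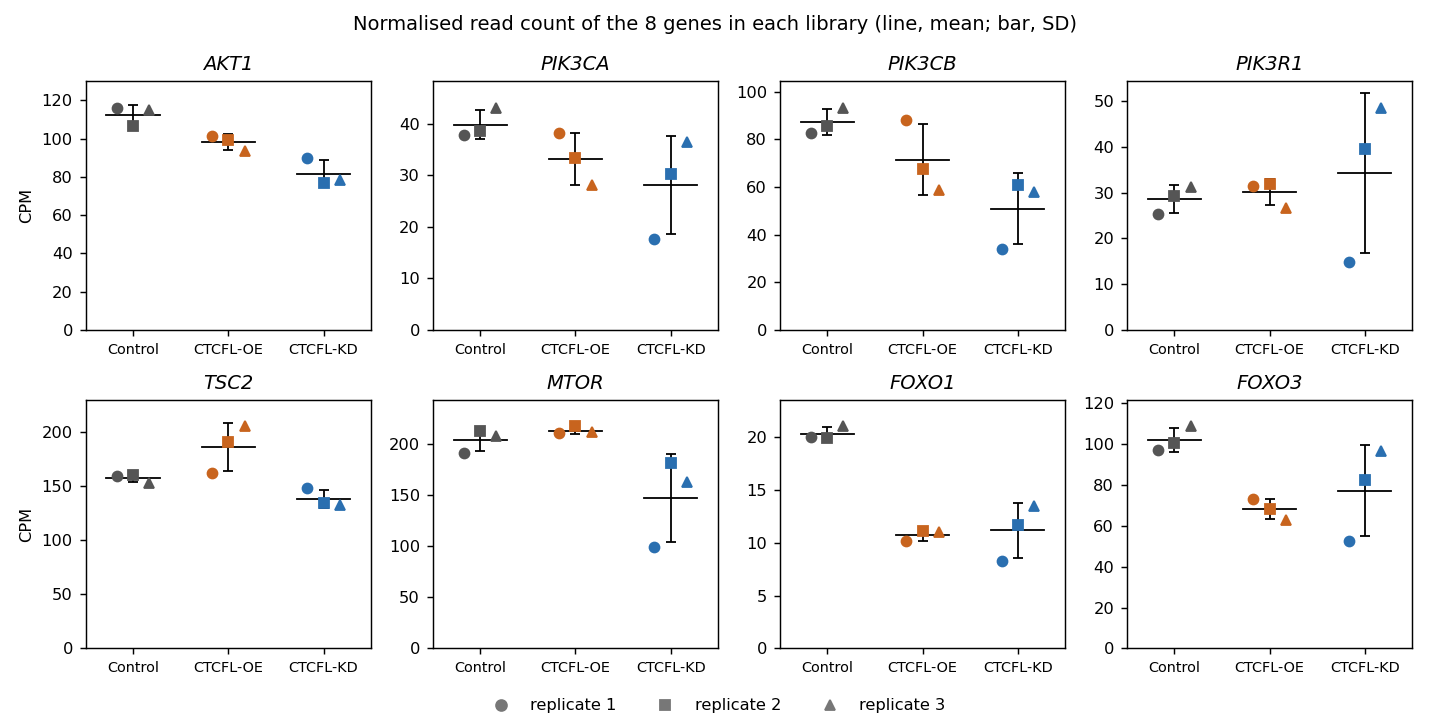
CPM of each of the 8 genes in the 3 libraries of each group (points, shaped by replicate), with the group mean as a line and its SD as a bar. *FOXO1* lies between 8.30 and 13.5 CPM in all treated libraries and from 19.9 CPM upwards in Control, and CTCFL-KD replicate 1 is the lowest library for 6 of the 8 genes.

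The promoters of the 3 genes called in CTCFL-KD, and that of *PIK3CA*, are printed here because CTCFL and CTCF bind DNA through zinc fingers with a shared core motif and FOXO factors bind a core of their own. They are RefSeq sequences of GRCh38.p14, each 300 bases long around an annotated start, and all 8 genes matched, with 17 promoters. The letters searched on both strands were AGGNGGC for the CTCF core, where N is any base, and GTAAACA for the FOXO core, and no match to one overlapped a match to the other. Capitals mark matches to either; lower case is the rest. AGGNGGC was in 35.9% of all 35116 promoters and in 10 of the 17 of these genes, which belong to 6 genes and include none of *PIK3CA* or *PIK3R1*. Among the 10 are all 4 promoters of *FOXO3* and the 2 of *TSC2*, some with overlapping windows, so they are not separate observations. The share of all genes with a match was not computed, and no excess can be read from these counts. GTAAACA was in 3.42% of all promoters and in 1 of the 17, that of *PIK3CA*, on the reverse strand at bases 102 to 108. *FOXO1* had AGGNGGC on the reverse strand at bases 106 to 112 and *AKT1* on the forward strand at bases 275 to 281. The *PIK3CB* promoter printed holds neither motif, while its other annotated promoter has AGGNGGC on the reverse strand at bases 266 to 272. A match states only that the letters are there; binding was not measured in these data.
FOXO1 promoter, chr13:40666592-40666891, minus strand: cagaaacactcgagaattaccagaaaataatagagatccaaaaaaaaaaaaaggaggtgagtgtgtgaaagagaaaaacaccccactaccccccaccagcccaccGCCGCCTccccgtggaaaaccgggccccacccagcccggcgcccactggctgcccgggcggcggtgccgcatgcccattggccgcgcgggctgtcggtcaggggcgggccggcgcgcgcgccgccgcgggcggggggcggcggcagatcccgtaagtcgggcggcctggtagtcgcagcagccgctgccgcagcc
AKT1 promoter, chr14:104795699-104795998, minus strand: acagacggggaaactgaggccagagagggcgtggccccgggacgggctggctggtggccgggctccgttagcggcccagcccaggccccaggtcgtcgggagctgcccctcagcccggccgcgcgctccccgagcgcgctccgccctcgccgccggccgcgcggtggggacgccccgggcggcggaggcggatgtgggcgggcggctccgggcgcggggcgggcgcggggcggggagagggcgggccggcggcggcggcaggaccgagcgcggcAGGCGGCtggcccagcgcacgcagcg
PIK3CB promoter, chr3:138834879-138835178, minus strand: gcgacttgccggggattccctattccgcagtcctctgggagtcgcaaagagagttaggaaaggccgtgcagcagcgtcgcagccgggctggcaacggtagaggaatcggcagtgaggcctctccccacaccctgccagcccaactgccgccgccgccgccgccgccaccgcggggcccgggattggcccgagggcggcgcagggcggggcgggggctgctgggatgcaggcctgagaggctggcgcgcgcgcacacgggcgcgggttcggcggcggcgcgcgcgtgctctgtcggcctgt
PIK3CA promoter, chr3:179148107-179148406, plus strand: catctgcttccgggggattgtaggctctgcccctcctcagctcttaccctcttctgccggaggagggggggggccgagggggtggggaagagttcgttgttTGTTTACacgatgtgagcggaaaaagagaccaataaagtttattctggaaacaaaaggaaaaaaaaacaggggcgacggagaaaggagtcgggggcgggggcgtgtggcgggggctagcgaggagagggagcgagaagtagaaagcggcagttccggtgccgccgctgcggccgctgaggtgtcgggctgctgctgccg

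*PIK3CA* (ENSG00000121879.6, chromosome 3 of GRCh38 from 179148114 to 179240093, plus strand) encodes the catalytic subunit p110 alpha, which is often mutated in carcinomas. It had 37.9, 38.5 and 43.2 CPM in Control, 38.2, 33.4 and 28.1 CPM in CTCFL-OE and 17.7, 30.3 and 36.4 CPM in CTCFL-KD. The CTCFL-KD libraries lay below Control, replicate 1 far below, and the CTCFL-OE libraries overlapped Control. The log2 fold change was -0.26 (SE 0.24, adjusted p from edgeR 0.599) in CTCFL-OE and -0.50 (SE 0.24, adjusted p from edgeR 0.129) in CTCFL-KD. Without CTCFL-KD replicate 1, the value in CTCFL-KD was -0.25 (adjusted p from edgeR 0.168), and it was called only without CTCFL-KD replicate 3 (-0.73, adjusted p 0.0463). Exons of the opposite-strand gene *KCNMB3* cover 19.8% of the exon bases of *PIK3CA*, and since the strand setting of the counting is not stated, reads of the 2 genes may be mixed there.

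*PIK3CB* (ENSG00000051382.9, chromosome 3 of GRCh38 from 138652698 to 138834928, minus strand), the catalytic subunit p110 beta, had 82.9, 85.5 and 93.3 CPM in Control, 88.2, 67.5 and 58.9 CPM in CTCFL-OE and 33.8, 60.8 and 58.1 CPM in CTCFL-KD. All CTCFL-KD libraries lay below all Control libraries, and replicate 1 was the lowest. In CTCFL-OE, replicate 1 was within the Control range and replicates 2 and 3 were below it. *PIK3CB* fell in CTCFL-KD, with a log2 fold change of -0.77 (SE 0.24, adjusted p = 0.0256 by the quasi-likelihood test of edgeR, Benjamini-Hochberg adjusted), and without CTCFL-KD replicate 1 the value was -0.55 (adjusted p from edgeR 0.0148). It was called in 17 of 20 alternatives and was lost without Control replicate 1, 2 or 3 (adjusted p from edgeR 0.0557, 0.0625 and 0.0822). CTCFL-OE gave a log2 fold change of -0.29 (SE 0.24, adjusted p from edgeR 0.552). The ratio of *PIK3CB* to *PIK3CA* in TPM averaged 3.24 in Control libraries, 3.17 in CTCFL-OE and 2.72 in CTCFL-KD, where it ranged from 2.36 to 2.97 and lay below the Control range of 3.20 to 3.28.

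*PIK3R1* (ENSG00000145675.15, chromosome 5 of GRCh38 from 68215740 to 68301821, plus strand) encodes the regulatory subunit p85 alpha, which stabilises and restrains the catalytic subunits. Its level was 25.3, 29.2 and 31.3 CPM in Control, 31.5, 31.9 and 26.7 CPM in CTCFL-OE and 14.9, 39.5 and 48.5 CPM in CTCFL-KD. CTCFL-KD replicate 1 had the lowest value of the 9 libraries, and replicates 2 and 3 had the highest. With all libraries the log2 fold change in CTCFL-KD came to 0.27 (SE 0.33, adjusted p from edgeR 0.552) and 0.072 in CTCFL-OE (SE 0.33, adjusted p from edgeR 0.929). Without CTCFL-KD replicate 1, *PIK3R1* was called higher in CTCFL-KD (log2 fold change 0.62, adjusted p from edgeR 0.00388), and without CTCFL-KD replicate 3 the value was -0.069. The sign and the call for this gene rest on which CTCFL-KD libraries are used.

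*AKT1* (ENSG00000142208.17, chromosome 14 of GRCh38 from 104769349 to 104795751, minus strand), the serine-threonine kinase that PI3K signalling activates, had 116, 106 and 115 CPM in Control, 102, 99.4 and 93.7 CPM in CTCFL-OE and 90.0, 76.8 and 78.5 CPM in CTCFL-KD. The 3 groups did not overlap, with Control highest and CTCFL-KD lowest, and CTCFL-KD replicate 1 was the highest of its group. *AKT1* fell in CTCFL-KD by 0.46 on the log2 scale (SE 0.15, adjusted p = 0.0350 by the quasi-likelihood test of edgeR, Benjamini-Hochberg adjusted). The change was -0.53 without CTCFL-KD replicate 1 (adjusted p from edgeR 0.00169) and -0.78 with the length and GC offset (0.000801). The call held in 12 of 20 alternatives; the adjusted p was 0.0513 with replicate number as a block, 0.0846 with no low-count filter, 0.117, 0.0776 and 0.115 without Control replicate 1, 2 and 3, 0.0519 without CTCFL-OE replicate 2, and 0.109 and 0.0929 without CTCFL-KD replicate 2 and 3. In CTCFL-OE the log2 fold change was -0.20 (SE 0.15, adjusted p from edgeR 0.526), and it was called under none of the alternatives run. The contrast of CTCFL-KD with CTCFL-OE was -0.27 (adjusted p from edgeR 0.219).

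The paralog *AKT2* was higher in CTCFL-KD, where *AKT1* was lower. *AKT2* had 307, 293 and 309 CPM in Control, 305, 307 and 293 CPM in CTCFL-OE and 681, 699 and 707 CPM in CTCFL-KD. Every CTCFL-KD library lay above 309 CPM, the highest value of the other 2 groups, and the CTCFL-OE libraries overlapped Control. *AKT2* rose by 1.20 on the log2 scale (SE 0.17, adjusted p = 0.000339 by the quasi-likelihood test of edgeR, Benjamini-Hochberg adjusted; 1.22 without CTCFL-KD replicate 1). The call held in all 20 alternatives, with log2 fold changes between 0.93 and 1.22. With the canonical transcript as length, *AKT2* exceeded *AKT1* in every library. The TPM ratio was 1.52 ± 0.0306 in Control, against 1.73 ± 0.0355 in CTCFL-OE and 4.82 ± 0.488 in CTCFL-KD (SD, n = 3). The lowest ratio in CTCFL-KD, 4.26, was in replicate 1. *AKT2* was not called in CTCFL-OE (adjusted p from edgeR 0.990).

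**Figure D3:**
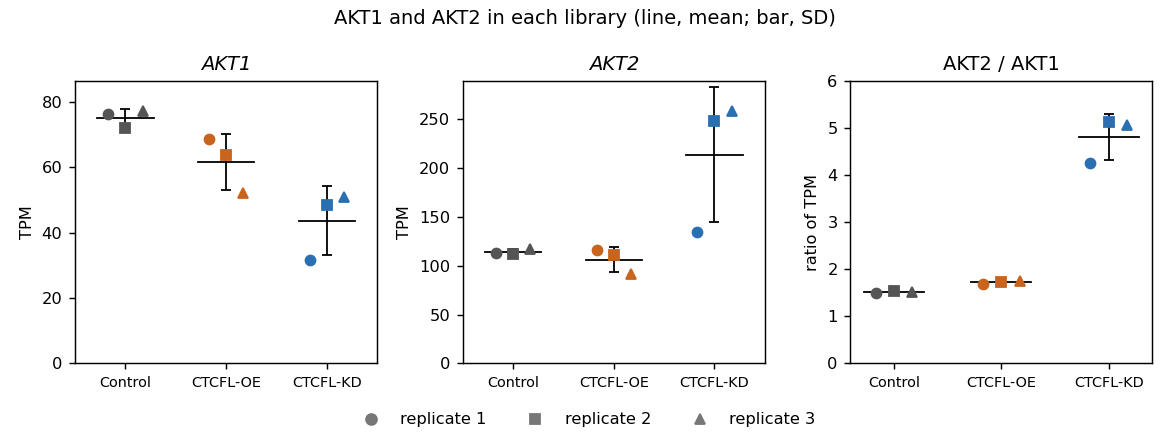
TPM of *AKT1* and *AKT2* in each library by group, and the ratio of *AKT2* to *AKT1* in the same library, with the mean as a line and the SD as a bar. The ratio lies between 4.26 and 5.13 in CTCFL-KD and between 1.49 and 1.76 in the other 2 groups, while TPM in CTCFL-KD replicate 1 are the lowest of its group for both genes.

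*TSC2* (ENSG00000103197.18, chromosome 16 of GRCh38 from 2047967 to 2089491, plus strand), tuberin, forms with TSC1 the complex that holds the GTPase RHEB, the direct activator of mTORC1, inactive. It had 159, 161 and 153 CPM in Control, 162, 191 and 205 CPM in CTCFL-OE and 148, 134 and 133 CPM in CTCFL-KD. All CTCFL-OE libraries lay above and all CTCFL-KD libraries below the Control libraries, in both cases with the nearest libraries close together. Neither difference from Control passed the test, with a log2 fold change of 0.24 (SE 0.16, adjusted p from edgeR 0.467) in CTCFL-OE and -0.19 (SE 0.16, adjusted p from edgeR 0.379) in CTCFL-KD. With the length and GC offset it was 0.092 (adjusted p from edgeR 0.702) in CTCFL-OE, or 0.0067 with the summed exon length, and it was called in CTCFL-KD at -0.48 (adjusted p 0.0122), as in 3 of 20 alternatives. Without CTCFL-KD replicate 1 it was -0.24 in CTCFL-KD (adjusted p from edgeR 0.137). CTCFL-KD against CTCFL-OE gave -0.43 (adjusted p from edgeR 0.0739), which was called without CTCFL-KD replicate 1 (-0.48, adjusted p 0.0129), by DESeq2 (adjusted p 0.00788) and with the offset (-0.58, adjusted p from edgeR 0.00624), in 6 of 20 in all. Its partner *TSC1* had 38.7, 40.6 and 38.3 CPM in Control, 33.7, 46.8 and 45.8 CPM in CTCFL-OE and 35.4, 59.3 and 54.1 CPM in CTCFL-KD, and its log2 fold change in CTCFL-KD was 0.34 (adjusted p from edgeR 0.230) with all libraries and 0.54 (adjusted p 0.0107) without CTCFL-KD replicate 1. The TPM ratio of *TSC2* to *TSC1* was 5.40 ± 0.117 in Control, against 5.97 ± 0.485 in CTCFL-OE and 3.97 ± 1.41 in CTCFL-KD, where replicate 1 had 5.59 and the lowest library 3.04.

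*MTOR* (ENSG00000198793.13, chromosome 1 of GRCh38 from 11106535 to 11262556, minus strand), the kinase shared by mTORC1 and mTORC2, had 191, 212 and 208 CPM in Control, 211, 217 and 211 CPM in CTCFL-OE and 98.9, 181 and 163 CPM in CTCFL-KD. The Control and CTCFL-OE libraries overlapped, and the CTCFL-KD libraries were all lower, replicate 1 by far the most. The log2 fold change was 0.062 (SE 0.22, adjusted p from edgeR 0.904) in CTCFL-OE and -0.47 (SE 0.22, adjusted p from edgeR 0.113) in CTCFL-KD. It was -0.25 (adjusted p from edgeR 0.0923) without CTCFL-KD replicate 1, and -0.69 (adjusted p from edgeR 0.00140) with the length and GC offset, so the call depends on how the length trend is treated. *RPTOR*, the scaffold of mTORC1, had a log2 fold change of 0.36 (adjusted p from edgeR 0.101) and *RICTOR*, that of mTORC2, -0.81 (adjusted p from edgeR 0.0522) in CTCFL-KD. Without CTCFL-KD replicate 1 both were called there, *RPTOR* at 0.37 (adjusted p from edgeR 0.0362) and *RICTOR* at -0.48 (0.0116), and *RICTOR* was also called without CTCFL-KD replicate 3 (-1.13, adjusted p 0.0146) and with the replicate block (0.0350), in 9 of 20 in all.

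*FOXO1* (ENSG00000150907.10, chromosome 13 of GRCh38 from 40555667 to 40666641, minus strand) encodes a transcription factor that AKT phosphorylates and inactivates. It had 400, 512 and 415 counts in Control, with 222, 212 and 179 counts in CTCFL-OE and 92, 197 and 246 counts in CTCFL-KD. These are 20.0, 19.9 and 21.02 CPM in Control, 10.1, 11.1 and 11.0002 CPM in CTCFL-OE and 8.30, 11.7 and 13.5 CPM in CTCFL-KD. Every treated library lay below every Control library, and the treated groups overlapped each other. *FOXO1* fell in CTCFL-OE by 0.92 on the log2 scale (SE 0.19, adjusted p = 0.0494 by the quasi-likelihood test of edgeR, Benjamini-Hochberg adjusted) and in CTCFL-KD by 0.86 (SE 0.19, adjusted p from edgeR 0.00524). The contrast of the 2 treated groups was 0.064 (SE 0.19, adjusted p from edgeR 0.827). The call in CTCFL-KD held in all 20 alternatives (log2 fold change -1.02 to -0.68), with -0.68 (adjusted p from edgeR 0.00113) without CTCFL-KD replicate 1. In CTCFL-OE the log2 fold change stayed between -0.95 and -0.87, and the call held in 15 of 20; the adjusted p from edgeR was 0.215, 0.199 and 0.254 without Control replicate 1, 2 and 3 and 0.198 and 0.151 without CTCFL-OE replicate 2 and 3. A same-strand long noncoding gene, ENSG00000288542, covers 22.7% of the exon bases of *FOXO1*, and counts of both are uncertain there.

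*FOXO3* (ENSG00000118689.15, chromosome 6 of GRCh38 from 108559835 to 108684774, plus strand), another FOXO factor under AKT control, had 97.0, 100.4 and 109 CPM in Control, 73.2, 68.4 and 63.1 CPM in CTCFL-OE and 52.7, 82.6 and 96.4 CPM in CTCFL-KD. Both treated groups lay below Control, and CTCFL-KD replicate 3 was just below Control replicate 1. The difference did not pass the test with all libraries in CTCFL-OE (log2 fold change -0.58, SE 0.21, adjusted p from edgeR 0.199) or in CTCFL-KD (-0.40, SE 0.21, adjusted p 0.162). In CTCFL-OE it was called in 5 of 20 alternatives, without CTCFL-KD replicate 1 at -0.58 (adjusted p from edgeR 0.00942) and with the length and GC offset at -0.62 (0.0246). In CTCFL-KD it was -0.18 (adjusted p from edgeR 0.209) without replicate 1 and -0.53 (0.00714) with the offset. The TPM ratio of *FOXO3* to *FOXO1* was 3.98 ± 0.132 in Control, against 5.05 ± 0.610 in CTCFL-OE and 5.43 ± 0.349 in CTCFL-KD (SD, n = 3), and every treated library lay above every Control library.

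**Figure D4:**
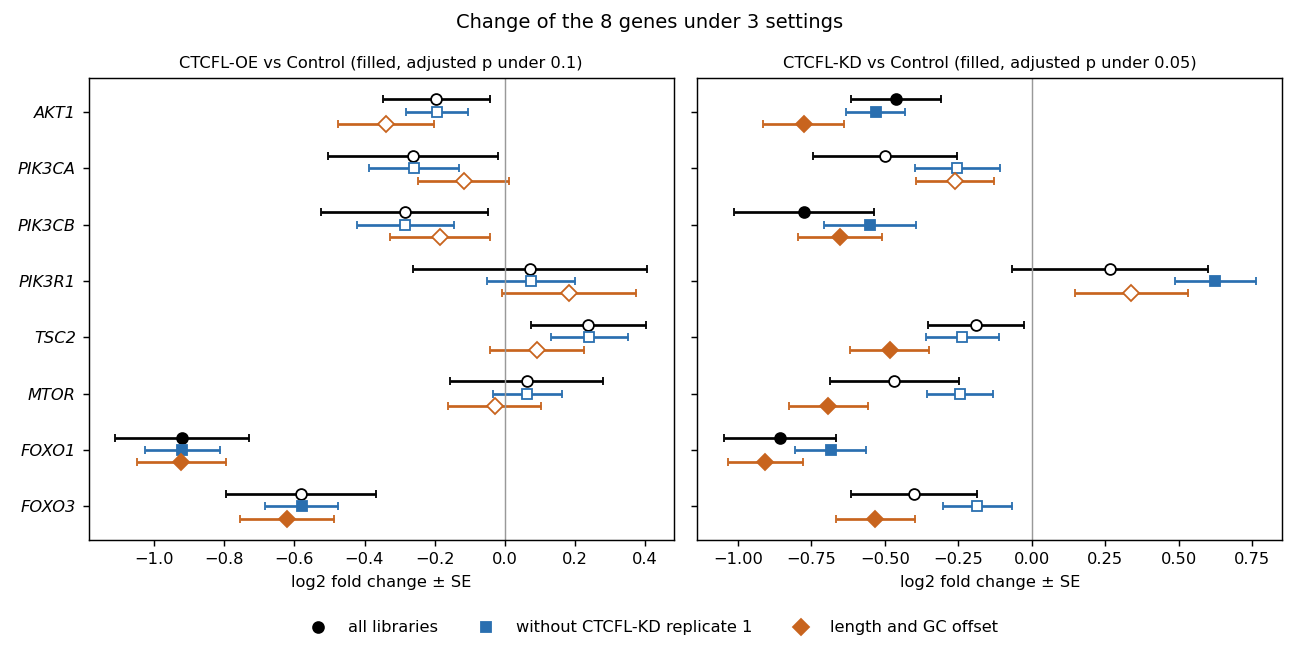
Log2 fold change ± SE of the 8 genes in CTCFL-OE and CTCFL-KD vs Control with all libraries, without CTCFL-KD replicate 1, and with an offset for length and GC content; filled symbols mark calls. *FOXO1* is called under all 3 fits in both panels, and *PIK3R1* in CTCFL-KD moves from 0.27 to 0.62 without replicate 1.

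The rest of the pathway was described by 11 lists with 115 genes, of which 114 were matched and 104 tested. In CTCFL-OE, 6 of these were called (2 higher, 4 lower; 5.77%, background 3.15%), and in CTCFL-KD 36 (16 higher, 20 lower; 34.6%, background 38.2%). In this fit neither the whole pathway nor the 8 genes thus held a share of calls in CTCFL-KD above that of all genes. With the length and GC offset, 6 of the 8 genes were called, a share above the background of 46.0%, and 44.2% of the pathway genes, below it. The count in CTCFL-OE moved strongly with single libraries, as did that of all genes, from 0 without Control replicate 1 or 3 or CTCFL-OE replicate 2 (background 0.245, 0.240 and 0.431%), 1 without Control replicate 2 (0.332%) and 2 without CTCFL-OE replicate 3 (0.635%), to 33 of 105 without CTCFL-KD replicate 1 (31.4%, background 27.4%) and 20 of 105 without CTCFL-OE replicate 1 (19.0%, background 15.1%). In CTCFL-KD it was 56 of 105 (23 higher, 33 lower; 53.3%, background 49.9%) without CTCFL-KD replicate 1, 23, 22 and 22 of 105 without Control replicate 1, 2 and 3 (21.9, 20.95 and 20.95%, background 26.8, 26.7 and 25.8%), and 27 of 104 (10 higher, 17 lower; 25.96%, background 36.9%) with the replicate block. The median log2 fold change over the lists was -0.10 in CTCFL-OE and -0.026 in CTCFL-KD.

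**Figure D5:**
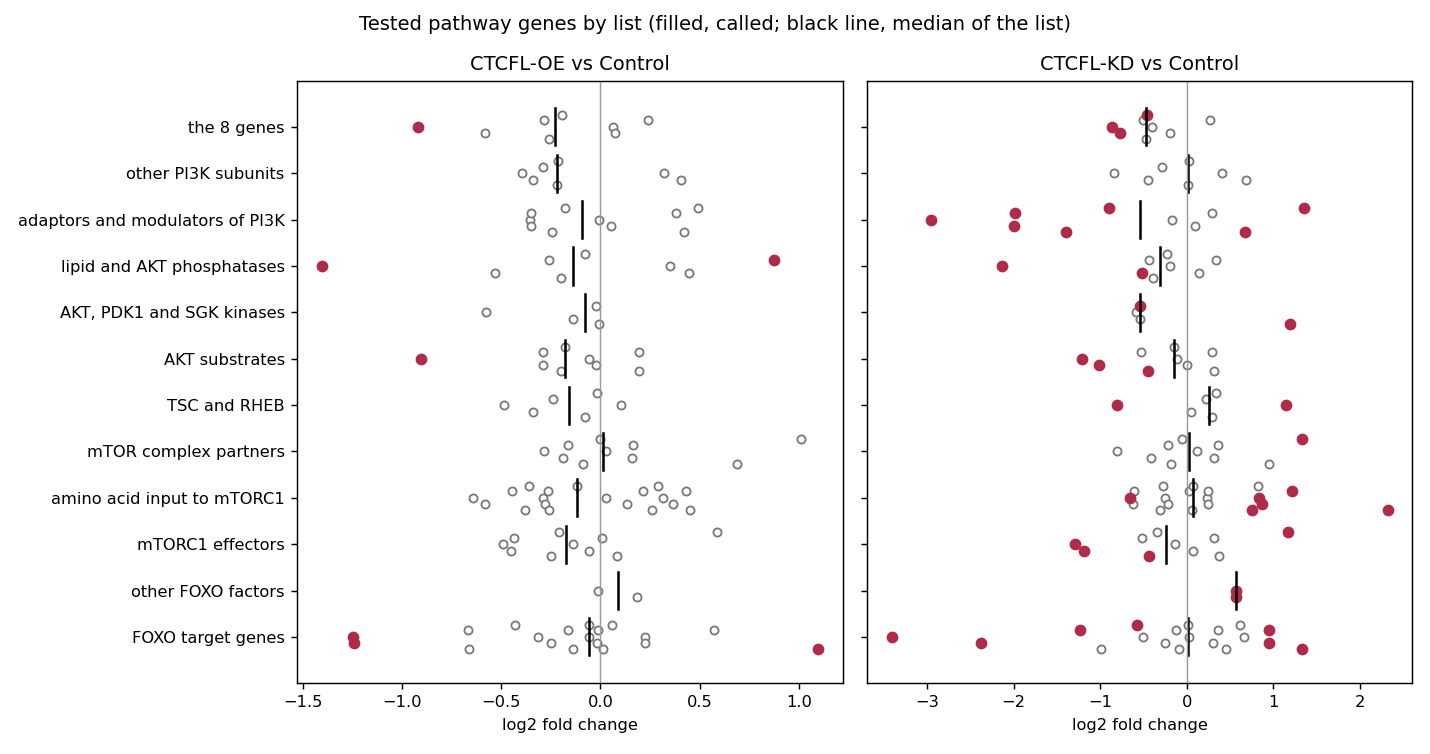
Log2 fold change of each tested gene of the 8 core genes and the 11 pathway lists in CTCFL-OE (left) and CTCFL-KD (right) vs Control, with called genes filled and the median of a list as a black line; the 2 axes differ in range. *TXNIP* at -3.41 is the lowest and *RRAGD* at 2.32 the highest value in CTCFL-KD.

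Of the other PI3K subunits, 0 of 7 tested were called by edgeR in CTCFL-OE (background 3.15%) and 0 in CTCFL-KD (background 38.2%), with medians of -0.22 and 0.011. For either, 1 had an unadjusted p under 0.05, and DESeq2 called 1 in CTCFL-OE and 0 in CTCFL-KD. *PIK3R2*, *PIK3CG*, *PIK3R6* and *PIK3C2G* had too few counts to be tested; the counts of *PIK3R2*, 1 to 7 per library, are uncertain, since annotation that overlaps it was not examined. Of the adaptors and modulators of PI3K, 7 of 10 tested genes were called, 2 higher and 5 lower, in CTCFL-KD (background 38.2%, median -0.54). In CTCFL-OE 0 of 10 were called by edgeR (background 3.15%, 0 at an unadjusted p under 0.05, 0 by DESeq2). *IRS2*, which couples insulin and IGF receptors to PI3K, had 269.6, 272 and 289 CPM in Control, 241, 245 and 248 CPM in CTCFL-OE and 45.5, 72.3 and 91.7 CPM in CTCFL-KD. CTCFL-KD replicate 3, the highest of its group, was still far below all other libraries, at a log2 fold change of -1.99 (SE 0.24, adjusted p from edgeR 0.000151; -1.75 without CTCFL-KD replicate 1). The related adaptor *IRS1*, with 24.3, 23.9 and 27.1 CPM in Control and 4.42, 10.5 and 13.4 CPM in CTCFL-KD, fell as well, to -1.40 (SE 0.31, adjusted p from edgeR 0.00491; -1.07 without CTCFL-KD replicate 1). *PIK3AP1*, an adaptor first described in B cells, had 17.1, 16.8 and 18.5 CPM in Control, 31.6, 19.5 and 18.9 CPM in CTCFL-OE and 2.89, 4.88 and 5.26 CPM in CTCFL-KD. It was lower in CTCFL-KD at -1.99 (SE 0.27, adjusted p from edgeR 0.000304; -1.78 without CTCFL-KD replicate 1), and in CTCFL-OE it did not pass the test (0.42, adjusted p from edgeR 0.402). The calls of all 3 adaptors in CTCFL-KD held in all 20 alternatives.

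Of the lipid and AKT phosphatases, which oppose the pathway, 2 of 8 tested genes were called, 1 higher and 1 lower, in CTCFL-OE (background 3.15%, median -0.14). In CTCFL-KD 2 of 8 tested genes were called, 0 higher and 2 lower (background 38.2%, median -0.31). *INPP4B*, a phosphatase of a PI3K lipid product, had 21.2, 19.4 and 21.2 CPM in Control, 8.21, 7.002 and 8.17 CPM in CTCFL-OE and 2.98, 5.83 and 5.09 CPM in CTCFL-KD. It lay below Control in every treated library and was lowest in CTCFL-KD. Its log2 fold change was -1.40 (SE 0.22, adjusted p from edgeR 0.0170) in CTCFL-OE, a call lost without Control replicate 1 or 3 or CTCFL-OE replicate 2 (adjusted p up to 0.120), and -2.13 (SE 0.23, adjusted p from edgeR 7.51e-05; -1.91 without CTCFL-KD replicate 1) in CTCFL-KD, which held in all 20 alternatives. The contrast of CTCFL-KD with CTCFL-OE was -0.73 (adjusted p from edgeR 0.0378) and was called in 11 of 20, lost without any Control or CTCFL-OE library, without CTCFL-KD replicate 3, with the replicate block and with only the groups compared (adjusted p up to 0.126). *INPP5J* was higher in CTCFL-OE (6.46, 5.25 and 6.74 CPM in Control and 9.08, 12.6 and 12.0 CPM in CTCFL-OE; log2 fold change 0.87, SE 0.22, adjusted p from edgeR 0.0840), lost with the replicate block and without any Control library, CTCFL-OE replicate 2 or 3 or CTCFL-KD replicate 3 (adjusted p up to 0.338). *INPP4A* was lower in CTCFL-KD at -0.52 (SE 0.18, adjusted p from edgeR 0.0442; -0.36 without CTCFL-KD replicate 1), lost with the replicate block (adjusted p 0.0606), without Control replicate 1, 2 or 3, CTCFL-OE replicate 2 or CTCFL-KD replicate 2 or 3, and with upper-quartile scaling, no filter or only the groups compared (adjusted p up to 0.129).

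Of the AKT, PDK1 and SGK kinases other than *AKT1*, 2 of 4 tested genes were called in CTCFL-KD, 1 higher and 1 lower (background 38.2%, median -0.54), and 0 of 4 in CTCFL-OE by edgeR (background 3.15%, median -0.080, 0 at an unadjusted p under 0.05, 0 by DESeq2). Beside *AKT2*, *SGK1* was called, with 8.76, 7.15 and 7.09 CPM in Control and 4.5998, 5.29 and 5.92 CPM in CTCFL-KD and a log2 fold change of -0.53 (SE 0.19, adjusted p from edgeR 0.0482; -0.45 without CTCFL-KD replicate 1). That call held in 10 of 20 alternatives and was lost, among others, with the replicate block (adjusted p 0.0720) and without Control replicate 1, 2 or 3, CTCFL-OE replicate 2 or CTCFL-KD replicate 2 or 3 (adjusted p up to 0.181). Of the AKT substrates, 1 of 9 tested genes was called, 0 higher and 1 lower, in CTCFL-OE (background 3.15%, median -0.18). In CTCFL-KD 3 of 9 tested genes were called, 0 higher and 3 lower (background 38.2%, median -0.15). The gene called in CTCFL-OE was *CDKN1A*, the cell cycle inhibitor p21, with 4.26, 3.23 and 4.41 CPM in Control, 2.37, 1.62 and 2.34 CPM in CTCFL-OE and 5.41, 4.46 and 4.93 CPM in CTCFL-KD. The CTCFL-OE libraries were the lowest and the CTCFL-KD libraries the highest, at log2 fold changes of -0.90 (SE 0.23, adjusted p from edgeR 0.0925) and 0.32 (adjusted p 0.290), respectively; the first was lost without any Control library, CTCFL-OE replicate 2 or 3 or CTCFL-KD replicate 2 or 3 (adjusted p up to 0.390). In CTCFL-KD, *PFKFB2*, a regulator of glycolysis, was at -1.20 (SE 0.20, adjusted p from edgeR 0.000891; -1.02 without CTCFL-KD replicate 1) and *CHUK*, the kinase IKK alpha, at -1.01 (SE 0.25, adjusted p from edgeR 0.00836; -0.75 without CTCFL-KD replicate 1), and both calls held in all 20 alternatives. *TBC1D1*, a regulator of glucose transporter traffic, was at -0.45 (SE 0.16, adjusted p from edgeR 0.0467; -0.44 without CTCFL-KD replicate 1), called in 11 of 20 and lost with the replicate block (adjusted p 0.0695), with upper-quartile scaling or no filter and without any Control library, CTCFL-OE replicate 2 or CTCFL-KD replicate 2 or 3 (adjusted p up to 0.135).

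Among the other genes of the TSC and RHEB step, 2 of 6 tested genes were called in CTCFL-KD, 1 higher and 1 lower (background 38.2%, median 0.26), and 0 of 6 in CTCFL-OE by edgeR (background 3.15%, median -0.16, 0 at an unadjusted p under 0.05, 0 by DESeq2). *RHEB* had 112, 104 and 111 CPM in Control, 108, 77.9 and 72.2 CPM in CTCFL-OE and 66.4, 59.3 and 61.0 CPM in CTCFL-KD. The CTCFL-KD libraries were below every other library, CTCFL-OE replicate 1 was within the Control range, and the log2 fold change in CTCFL-KD was -0.81 (SE 0.18, adjusted p from edgeR 0.00593; -0.85 without CTCFL-KD replicate 1), called in all 20 alternatives. *DDIT4*, a stress-induced inhibitor of mTORC1, was high in CTCFL-KD replicate 3 alone (14.8, 16.1 and 13.9 CPM in Control and 20.7, 17.5 and 60.5 CPM in CTCFL-KD); its call at 1.15 (SE 0.41, adjusted p from edgeR 0.0466; 1.39 without CTCFL-KD replicate 1) held in 6 of 20 alternatives and gave 0.35 (adjusted p 0.273) without that library. It was also lost with the replicate block (adjusted p from edgeR 0.0775), without any Control or CTCFL-OE library (adjusted p up to 0.127), with the length and GC offset (0.93, adjusted p 0.104), and with RLE scaling, at least 10 counts in every library or only the groups compared. Of the mTOR complex partners, 1 of 10 tested genes was called in CTCFL-KD, 1 higher and 0 lower (background 38.2%, median 0.033), and 0 of 10 in CTCFL-OE by edgeR (background 3.15%, median 0.012, 2 at an unadjusted p under 0.05, 1 by DESeq2). The gene called was *DEPTOR*, an inhibitor bound to both complexes, with 4.11, 4.002 and 4.05 CPM in Control, 14.5, 5.12 and 4.73 CPM in CTCFL-OE and 9.02, 10.8 and 10.9 CPM in CTCFL-KD. CTCFL-OE replicate 1 was the highest library and the CTCFL-KD libraries lay above Control, at 1.34 (SE 0.38, adjusted p from edgeR 0.0173; 1.42 without CTCFL-KD replicate 1); the call was lost without Control replicate 1, 2 or 3 (adjusted p up to 0.0587).

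Of the genes that carry the amino acid signal to mTORC1, 6 of 19 tested genes were called in CTCFL-KD, 5 higher and 1 lower (background 38.2%, median 0.070), and 0 of 19 in CTCFL-OE by edgeR (background 3.15%, median -0.12, 2 at an unadjusted p under 0.05, 0 by DESeq2). *RRAGD*, a RAG GTPase that places mTORC1 on the lysosome, had 3.16, 2.95 and 3.34 CPM in Control, 5.02, 4.23 and 3.44 CPM in CTCFL-OE and 16.9, 14.03 and 16.5 CPM in CTCFL-KD. Every CTCFL-KD library was above every other library, and the log2 fold change was 2.32 (SE 0.20, adjusted p from edgeR 1.60e-05; 2.28 without CTCFL-KD replicate 1), called in all 20 alternatives. *LAMTOR4*, a subunit of the lysosomal anchor of the RAG GTPases, had 33.4, 31.6 and 32.7 CPM in Control and 149, 36.6 and 43.4 CPM in CTCFL-KD. It is a short gene, and replicate 1 carried most of its log2 fold change, 1.22 (SE 0.43, adjusted p from edgeR 0.0448; 0.30 without CTCFL-KD replicate 1); the call was lost with the replicate block (adjusted p 0.0639), with the offset by summed exon length, with only the groups compared and without any Control or CTCFL-OE library (adjusted p up to 0.117). It held with the length and GC offset by canonical length, at 0.58 (adjusted p from edgeR 0.0473), where the contrast with CTCFL-OE, not called in the main fit (adjusted p 0.0624), was called as well (0.65, adjusted p 0.0348). *SESN2*, a stress-induced leucine sensor, was at 0.87 (SE 0.27, adjusted p from edgeR 0.0257; 0.95 without CTCFL-KD replicate 1), and the call was lost without any Control library, without CTCFL-KD replicate 3 and with the length and GC offset (adjusted p up to 0.114). Of the mTORC1 effectors, 4 of 10 tested genes were called in CTCFL-KD, 1 higher and 3 lower (background 38.2%, median -0.24), and 0 of 10 in CTCFL-OE by edgeR (background 3.15%, median -0.18, 3 at an unadjusted p under 0.05, 0 by DESeq2). The cap-binding translation factor *EIF4E* had 94.8, 92.4 and 98.3 CPM in Control, 85.1, 63.9 and 61.8 CPM in CTCFL-OE and 35.4, 45.4 and 44.04 CPM in CTCFL-KD. CTCFL-KD was lowest, without overlap, at -1.19 (SE 0.18, adjusted p from edgeR 0.000615; -1.08 without CTCFL-KD replicate 1), called in all 20 alternatives. *EIF4EBP1*, its inhibitor, went the other way with 46.6, 38.2 and 41.9 CPM in Control and 162, 56.4 and 68.1 CPM in CTCFL-KD, at 1.18 (SE 0.34, adjusted p from edgeR 0.0180; 0.56 without CTCFL-KD replicate 1). Replicate 1 was far above the others, and the call was lost with only the groups compared and without Control replicate 2 or 3 (adjusted p up to 0.0698). *TFEB*, a factor for lysosomal genes that mTORC1 keeps in the cytoplasm, was at -1.29 (SE 0.36, adjusted p from edgeR 0.0172; -1.83 without CTCFL-KD replicate 1), lost without Control replicate 2 or CTCFL-KD replicate 2 or 3 (adjusted p up to 0.0554).

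The other FOXO factors, *FOXO4* and *FOXO6*, were both called higher in CTCFL-KD (background 21.4%), and neither was called in CTCFL-OE (background 3.15%, 0 by edgeR, by DESeq2 and at an unadjusted p under 0.05). *FOXO4* had 8.31, 9.21 and 9.17 CPM in Control and 11.004, 14.1 and 14.4 CPM in CTCFL-KD, at 0.57 (SE 0.20, adjusted p from edgeR 0.0418; 0.68 without CTCFL-KD replicate 1). *FOXO6* had 6.41, 5.01 and 5.98 CPM in Control and 10.2, 8.03 and 7.61 CPM in CTCFL-KD, at 0.57 (SE 0.20, adjusted p from edgeR 0.0469; 0.44 without CTCFL-KD replicate 1). Both calls were close to the threshold, held in 9 and 5 of 20 alternatives, and were lost with the replicate block (adjusted p from edgeR 0.0684 and 0.0716) and without any Control library, CTCFL-OE replicate 2 or CTCFL-KD replicate 2 or 3; *FOXO6* was also lost without CTCFL-OE replicate 3 or CTCFL-KD replicate 1. With the length and GC offset neither was called, *FOXO4* at 0.34 (adjusted p from edgeR 0.213) and *FOXO6* at 0.013 (0.966), and with the block added *FOXO6* was at -0.0040. Both were also lost with no low-count filter, and *FOXO6* with RLE scaling or only the groups compared. Of the FOXO target genes, 3 of 19 tested genes were called, 1 higher and 2 lower, in CTCFL-OE (background 3.15%, median -0.058). In CTCFL-KD 7 of 19 tested genes were called, 3 higher and 4 lower (background 38.2%, median 0.019). *TXNIP*, an inhibitor of glucose uptake and thioredoxin, had 16.6, 17.1 and 15.4 CPM in Control, 9.90, 6.79 and 3.87 CPM in CTCFL-OE and 1.35, 2.14 and 1.10 CPM in CTCFL-KD. It was ordered from Control to CTCFL-OE to CTCFL-KD, highest to lowest and without overlap, with log2 fold changes of -1.25 (SE 0.31, adjusted p from edgeR 0.0810) and -3.41 (SE 0.36, adjusted p from edgeR 6.09e-05; -3.34 without CTCFL-KD replicate 1). *TNFSF10*, the death ligand TRAIL, had 34.5, 40.8 and 37.2 CPM in Control, 15.6, 11.8 and 20.2 CPM in CTCFL-OE and 6.40, 7.61 and 7.504 CPM in CTCFL-KD. The groups had the same order, with log2 fold changes of -1.24 (SE 0.21, adjusted p from edgeR 0.0224) and -2.38 (SE 0.22, adjusted p from edgeR 2.54e-05; -2.31 without CTCFL-KD replicate 1). *INSR*, the insulin receptor, had 14.1, 15.0 and 14.9 CPM in Control, 21.5, 36.2 and 36.6 CPM in CTCFL-OE and 26.3, 30.03 and 29.0 CPM in CTCFL-KD. It was higher in every treated library than in Control, at 1.10 (SE 0.21, adjusted p from edgeR 0.0389) in CTCFL-OE and 0.96 (SE 0.21, adjusted p from edgeR 0.00507; 1.01 without CTCFL-KD replicate 1) in CTCFL-KD. The 3 calls in CTCFL-OE were lost without Control replicate 1, 2 or 3 or CTCFL-OE replicate 2, and those of *TXNIP* and *INSR* also without CTCFL-OE replicate 3 (adjusted p up to 0.310 for *TXNIP*, 0.139 for *TNFSF10* and 0.217 for *INSR*), and the 3 calls in CTCFL-KD held in all 20 alternatives. *ERBB3*, a receptor that recruits PI3K, had 91.0, 101 and 97.6 CPM in Control, 112, 143 and 175 CPM in CTCFL-OE and 239, 256 and 234 CPM in CTCFL-KD. CTCFL-KD was highest, at 1.33 (SE 0.19, adjusted p from edgeR 0.000409; 1.35 without CTCFL-KD replicate 1), called in all 20 alternatives, and CTCFL-OE did not pass the test (0.57, adjusted p from edgeR 0.160) except, among single libraries left out, without CTCFL-OE replicate 1 (adjusted p 0.0403) or CTCFL-KD replicate 1 (0.0365).

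The study placed 7 genes with changed expression in PI3K-Akt, *ITGB6*, *ITGB3*, *FGFR1*, *IL7R*, *FN1*, *NTF3* and *VEGFA*, which are receptors, ligands and matrix proteins upstream of the 8 genes; they were chosen on these samples, so that they were called is not an independent result. All 7 were called in both comparisons, 3 higher and 4 lower (background 3.15% in CTCFL-OE and 38.2% in CTCFL-KD). *ITGB6*, an integrin subunit, had 157, 158 and 159.8 CPM in Control, 41.6, 23.8 and 40.3 CPM in CTCFL-OE and 9.02, 9.99 and 13.5 CPM in CTCFL-KD. The groups did not overlap, with Control highest and CTCFL-KD lowest. It was at -2.17 (SE 0.24, adjusted p from edgeR 0.00350) in CTCFL-OE and -3.86 (SE 0.26, adjusted p from edgeR 4.52e-06; -3.75 without CTCFL-KD replicate 1) in CTCFL-KD. *FGFR1*, a growth factor receptor that signals to PI3K, had 69.5, 72.8 and 67.3 CPM in Control, 121, 149 and 164 CPM in CTCFL-OE and 153, 154 and 156 CPM in CTCFL-KD. The treated groups overlapped each other and lay above Control, at 1.05 (SE 0.17, adjusted p from edgeR 0.0170) and 1.14 (SE 0.17, adjusted p from edgeR 0.000450; 1.15 without CTCFL-KD replicate 1). In CTCFL-OE and CTCFL-KD respectively, *ITGB3* was at -1.25 and -4.57, *FN1* at -1.60 and -1.90, *IL7R* at -1.88 and -3.59, *VEGFA* at 1.13 and 2.29, and *NTF3* at 1.324 and 2.89. In CTCFL-OE, *ITGB6* alone of the 7 was called in all alternatives run; *FGFR1*, *ITGB3*, *FN1*, *VEGFA* and *IL7R* were lost without any Control library and *NTF3* without Control replicate 1 or 3, and *ITGB3*, *FN1*, *VEGFA* and *IL7R* without CTCFL-OE replicate 2, *FN1* and *VEGFA* without CTCFL-OE replicate 3 and *FN1* without CTCFL-KD replicate 2 (adjusted p from edgeR up to 0.305 in *VEGFA*).

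CTCFL-KD was also compared with CTCFL-OE directly, in which Control enters through the scaling, the low-count filter and the shared estimate of the spread. By edgeR, 0 of the 8 genes were called (background 26.8%, 15.3% higher and 11.5% lower); 2 had an unadjusted p under 0.05 and DESeq2 called 1, *TSC2* (background 32.4%). Without CTCFL-KD replicate 1, 5 of the 8 were called (62.5%; 39.7% of all genes), *AKT1* at -0.34, *TSC2* at -0.48, *MTOR* at -0.31, *PIK3R1* at 0.55 and *FOXO3* at 0.39. With the length and GC offset 4 were called (background 37.2%), *AKT1* at -0.44, *PIK3CB* at -0.47, *TSC2* at -0.58 and *MTOR* at -0.66. Without CTCFL-OE replicate 1, *TSC2* alone was called (background 23.3%). With all libraries, of the 104 pathway genes 25 were called (11 higher, 14 lower; 24.0%).

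With all libraries *FOXO1* had the largest absolute log2 fold change of the 8 genes in both comparisons; without CTCFL-KD replicate 2, *PIK3CB* (-0.91) lay beyond *FOXO1* (-0.88) in CTCFL-KD. Its pattern over the 9 libraries was closest to those of *SOX4*, *LIMK2* and *IFFO2*, with root mean square differences of centred log2 CPM of 0.123, 0.137 and 0.139 among 15371 genes. *LIMK2*, a kinase of actin regulation, had 207, 205 and 207 CPM in Control, 116, 127 and 122 CPM in CTCFL-OE and 113, 128 and 131 CPM in CTCFL-KD. As for *FOXO1*, every treated library was below every Control library. *SOX4*, a transcription factor, was at a log2 fold change of -0.78 in CTCFL-OE and at -0.73 in CTCFL-KD, *LIMK2* -0.76 and -0.73, and *IFFO2* -1.02 and -1.06. All were called in both comparisons; the calls in CTCFL-OE were lost without any Control library or CTCFL-OE replicate 2 or 3 (adjusted p from edgeR up to 0.387 for *SOX4*, which was called in 11 of 20 and also lost without CTCFL-KD replicate 2 and with RLE scaling, upper-quartile scaling or at least 10 counts in every library, 0.257 for *LIMK2* and 0.226 for *IFFO2*), and that of *SOX4* in CTCFL-KD without Control replicate 3 (0.0645). These genes were chosen by their likeness, which was not tested.

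The label of the cells was checked with markers. The 12 ovarian carcinoma epithelium markers summed to 6291, 6377 and 6318 TPM in Control, 6084, 5257 and 4805 TPM in CTCFL-OE and 10421, 9052 and 8968 TPM in CTCFL-KD, led by *KRT8* or *KRT7*, and all 12 had counts in every library. In CTCFL-KD 10 of 11 tested were called (8 higher, 2 lower, background 38.2%), and 0 of 11 in CTCFL-OE by edgeR (background 3.15%, 2 at an unadjusted p under 0.05, 2 by DESeq2). Their part in the results for the pathway genes was not tested. The 10 fibroblast markers summed to 11.5, 11.3 and 9.86 TPM in Control, 8.95, 12.0 and 12.5 TPM in CTCFL-OE and 8.26, 13.9 and 13.7 TPM in CTCFL-KD, led by *COL1A1*. In CTCFL-KD 2 of 4 tested were called (background 38.2%), both higher, *COL1A2* and *POSTN*, and 0 of 4 in CTCFL-OE by edgeR (background 3.15%, 1 at an unadjusted p under 0.05, 0 by DESeq2). *COL1A2* was at 3 counts or fewer in every Control library and at least 99.98-fold higher in CTCFL-KD, and *POSTN* had 2, 1 and 5 counts in Control and 9, 18 and 13 counts in CTCFL-KD. *COL3A1*, too low to be tested, had 0 counts in every Control library and 8, 9 and 8 counts in CTCFL-KD. *COL1A1* did not pass the test (-0.36, adjusted p from edgeR 0.221), and in CTCFL-KD *DCN* had 0, 4 and 0 and *LUM* 4, 1 and 8 counts. *COL1A2*, *COL3A1*, *POSTN* and *LUM* were named after their values were seen. The 7 leukocyte markers summed to 0.413, 0.189 and 0.322 TPM in Control, 0.342, 0.751 and 0.993 TPM in CTCFL-OE and 2.45, 2.05 and 2.23 TPM in CTCFL-KD, led by *CD14*, with *PTPRC*, which marks all leukocytes, at 0, 4 and 7 counts in Control, 2, 2 and 6 counts in CTCFL-OE and 2, 5 and 8 counts in CTCFL-KD. Of these 7, *CD14* alone was tested; it was called higher in CTCFL-KD (3.84, adjusted p from edgeR 0.000571) and did not pass the test in CTCFL-OE (1.41, adjusted p 0.324). The 6 endothelial markers summed to 3.20, 3.10 and 2.81 TPM in Control, 3.49, 3.34 and 2.95 TPM in CTCFL-OE and 2.44, 6.54 and 6.84 TPM in CTCFL-KD, led by *VWF*, or by *KDR* in CTCFL-KD. In CTCFL-KD 2 of 3 tested were called (background 38.2%), *KDR* higher (2.73, adjusted p from edgeR 0.000343) and *PECAM1* lower (-2.56, adjusted p 0.000511), and in CTCFL-OE 1 of 3 (background 3.15%), *VWF*, higher (0.71, adjusted p from edgeR 0.0951). *PECAM1* was named after its values were seen, and calls of single markers were not followed over the alternatives. Fibroblast, leukocyte and endothelial markers were thus far below the epithelial ones per length in every library, though *COL1A1*, *VWF* and *KDR* were present and *COL1A2*, *COL3A1*, *POSTN*, *CD14* and *KDR* were highest in CTCFL-KD.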

How the data were processed

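RNA of 9 OVCAR3 libraries was sequenced by the authors (TruSeq stranded mRNA, paired-end reads), trimmed with Trimmomatic, aligned to GRCh38 with STAR and counted per gene with featureCounts, and the deposited values are raw read counts; annotation release, strand setting and treatment of multimapping reads are not stated, and the labels also name kallisto. CPM, TPM, log2 fold changes and p-values were all computed here from the deposited counts. Plasmid and endogenous *CTCFL* reads cannot be told apart in them.

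Gene names and lengths came from GENCODE release 44. Genes passing filterByExpr were fitted in edgeR 4.0.16 (R 4.3.3; TMM scaling, robust quasi-likelihood fit, condition only), with Benjamini-Hochberg adjustment over all 17794 genes tested and CTCFL-KD vs CTCFL-OE as a contrast called at an adjusted p under 0.05. SE is the absolute log2 fold change over the square root of F. Where a group held at most 3 counts in every library, a fold is given as a lower bound with 3 counts as the floor. DESeq2 1.42.0 was an alternative, and tables and figures were made in Python 3.11.15 (pandas 2.3.3, numpy 2.4.6, matplotlib 3.10.9). The fitting script was tested on simulated data.

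The 20 alternatives were DESeq2; scaling by upper quartile or RLE; every gene with at least 1 count, or only genes with 10 or more in each library; estimation that is not robust; replicate number as a block, an offset per library for length and GC content (natural splines with 4 degrees of freedom each), both together, the offset on union exon length, edgeR on only the 2 groups compared, and each library left out in turn; the union exon length was chosen after seeing the data.

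Same-numbered libraries of CTCFL-KD and Control deviated together from their group means over 15371 genes. The correlations were 0.251, 0.151 and 0.173, and 0.108, 0.118 and 0.0838 with length and GC trends removed. Libraries with unlike numbers were not compared, and deviations within a group depend on each other. These values therefore cannot tell whether the numbers pair the libraries, and the labels do not state it. Blocked values are given where they change a call.

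The 8 genes and the lists were chosen with earlier results of these data known. Named genes are the 8 genes, *CTCFL* and *CTCF*, fixed partners and paralogs, the 7 genes the study placed in the pathway, up to 3 called genes without overlap per list and comparison with the largest change, the 3 nearest patterns, and leading or absent markers. The adaptor *GAB3*, at 3 counts or fewer in every CTCFL-KD library and there at least 2.62-fold below Control, was not among them. Some genes of the planned lists are not reported here and were left out of the list counts after the first run. The canonical transcript as length was settled after an exploratory fit had been seen. Motif letters were settled after the promoters had been read, and a longer CTCF form searched first was in 0 of the 17 promoters (2.41% of all). The promoters printed were chosen after calls and matches were known. *SOD2* had no identifier in the matrix.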

Additional observations from a re-analysis of the deposited data

Results flagged for a closer look

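The following genes were singled out because their change from Control differed between CTCFL-KD and CTCFL-OE in the contrast of the 2 treated groups (called at an adjusted p under 0.05 by the quasi-likelihood test of edgeR, Benjamini-Hochberg adjusted). *CTCFL*, the gene the treatments act on, was at least 12.8-fold lower in CTCFL-KD, where all libraries were at 3 counts or fewer. Its fitted log2 fold change of -6.52 rests on these counts and is not ranked with the others. For the other genes the difference is given as a log2 fold change of CTCFL-KD over CTCFL-OE. The genes lower in CTCFL-KD were at -3.32 for *ITGB3*, -2.41 for *PIK3AP1*, -2.16 for *TXNIP*, -1.81 for *IRS2*, -1.71 for *IL7R*, -1.70 for *ITGB6*, -1.40 for *PFKFB2*, -1.15 for *TFEB*, -1.14 for *TNFSF10*, -1.05 for *IRS1*, -0.97 for *RICTOR*, -0.83 for *CHUK*, -0.75 for *EIF4E* and -0.73 for *INPP4B*. The genes higher in CTCFL-KD were at 1.89 for *RRAGD*, 1.57 for *NTF3*, 1.22 for *CDKN1A*, 1.21 for *AKT2*, 1.16 for *VEGFA*, 1.09 for *EIF4EBP1* and 0.76 for *ERBB3*. None of the 8 core genes was among them. Some of these calls were lost under alternatives, mostly with 1 library left out: *TFEB* was called in 10 of 20 (-1.69 to -0.82), *INPP4B* in 11 of 20 (-0.94 to -0.51), *EIF4EBP1* in 13 of 20 (0.48 to 1.34), *RICTOR* in 13 of 20 (-1.29 to -0.65), *IL7R* in 15 of 19 (-2.03 to -0.86), *IRS1* in 16 of 20 (-1.38 to -0.72), *CHUK* in 17 of 20 (-1.04 to -0.57), *ERBB3* in 18 of 20 (0.61 to 0.92) and *EIF4E* in 19 of 20 (-0.85 to -0.58).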

How the results depend on the processing

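Groups of 3 libraries, and counts of *CTCFL* of at most 72, limit what these comparisons can show. In CTCFL-KD vs Control, the calls of *FOXO1*, *PIK3AP1*, *IRS2*, *IRS1*, *INPP4B*, *AKT2*, *PFKFB2*, *CHUK*, *RHEB*, *RRAGD*, *EIF4E*, *TXNIP*, *TNFSF10*, *INSR*, *ERBB3*, *FGFR1*, *ITGB3*, *ITGB6*, *FN1*, *VEGFA*, *NTF3*, *LIMK2* and *IFFO2* held in all 20 alternatives. With the replicate block, 426 of all genes were called in CTCFL-OE vs Control, 6567 in CTCFL-KD vs Control and 4550 in CTCFL-KD vs CTCFL-OE, and 1, 2 and 0 core genes; pathway genes were 5, 27 and 22. Beside the calls with a blocked value in the report, the block ended those of *INPP5J* in CTCFL-OE vs Control (log2 fold change 0.88, adjusted p from edgeR 0.120) and of *INPP4B* (0.0522) and *TFEB* (just over the threshold) in CTCFL-KD vs CTCFL-OE, and it changed no other call of a named gene. Correlations of the deviations of same-numbered libraries of CTCFL-OE and Control were -0.0324, 0.188 and -0.0469 for replicates 1, 2 and 3 (0.00612, 0.210 and -0.0445 with length and GC trends removed), and those of CTCFL-KD and CTCFL-OE 0.00938, 0.07999 and 0.0101 (0.111, 0.179 and 0.0438); whether the numbers pair these libraries is not known. Under the filter of at least 10 counts, *CTCFL* and *IL7R* could not be tested, and *CTCFL* in CTCFL-KD also could not be tested in edgeR on only the 2 groups compared. In CTCFL-OE vs Control, leaving out 1 library at a time gave 0 to 2 core genes called (all libraries 1), 0 to 33 pathway genes called (all libraries 6) and 44 to 5040 of all genes called (all libraries 561). In CTCFL-KD vs Control, leaving out 1 library at a time gave 1 to 4 core genes called (all libraries 3), 22 to 56 pathway genes called (all libraries 36) and 4738 to 9170 of all genes called (all libraries 6800). In CTCFL-KD vs CTCFL-OE, leaving out 1 library at a time gave 0 to 5 core genes called (all libraries 0), 14 to 41 pathway genes called (all libraries 25) and 3181 to 7297 of all genes called (all libraries 4771). With DESeq2 the counts that moved by over 1.5 times were 10 pathway genes in CTCFL-OE vs Control (background 8.55%), 1522 of all genes in CTCFL-OE vs Control and 1 core gene in CTCFL-KD vs CTCFL-OE (background 32.4%). With no low-count filter the counts that moved by over 1.5 times were 1517 of all genes in CTCFL-OE vs Control. With the length and GC offset the counts that moved by over 1.5 times were 2 core genes in CTCFL-OE vs Control (background 10.4%), 13 pathway genes in CTCFL-OE vs Control (background 10.4%), 1847 of all genes in CTCFL-OE vs Control, 6 core genes in CTCFL-KD vs Control (background 46.0%) and 4 core genes in CTCFL-KD vs CTCFL-OE (background 37.2%). With the replicate block and the length and GC offset the counts that moved by over 1.5 times were 2 core genes in CTCFL-OE vs Control (background 10.5%), 13 pathway genes in CTCFL-OE vs Control (background 10.5%), 1871 of all genes in CTCFL-OE vs Control, 6 core genes in CTCFL-KD vs Control (background 46.3%) and 4 core genes in CTCFL-KD vs CTCFL-OE (background 37.7%). With the offset on union exon length, an alternative chosen after seeing the data, the counts that moved by over 1.5 times were 2 core genes in CTCFL-OE vs Control (background 7.80%), 1388 of all genes in CTCFL-OE vs Control, 6 core genes in CTCFL-KD vs Control (background 43.6%) and 3 core genes in CTCFL-KD vs CTCFL-OE (background 34.5%). With edgeR on only the 2 groups compared the counts that moved by over 1.5 times were 2 core genes in CTCFL-OE vs Control (background 20.2%), 19 pathway genes in CTCFL-OE vs Control (background 20.2%), 3450 of all genes in CTCFL-OE vs Control, 11 pathway genes in CTCFL-KD vs CTCFL-OE (background 15.5%) and 2668 of all genes in CTCFL-KD vs CTCFL-OE.

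The causes of these shifts were not tested. Offset stands for length and GC content, block for replicate number, and the value in brackets is that with all libraries. Log2 fold changes that changed sign in CTCFL-OE vs Control were *PIK3R1* (0.072) -0.016 to 0.14 with 1 library left out; *MTOR* (0.062) -0.029 offset, -0.028 block and offset, -0.044 union offset; *AKT2* (-0.0064) 0.0050 DESeq2, 0.0049 RLE, 0.047 upper-quartile, 0.015 the 10-count filter, 0.034 2 groups only, -0.038 to 0.024 with 1 library left out; *SGK1* (-0.021) 0.029 upper-quartile, 0.018 2 groups only, -0.10 to 0.078 with 1 library left out; *TBC1D1* (-0.023) 0.029 upper-quartile, 0.017 2 groups only, -0.16 to 0.058 with 1 library left out; *DDIT4* (-0.019) 0.037 upper-quartile, 0.0031 the 10-count filter, 0.020 2 groups only, -0.26 to 0.11 with 1 library left out; *LAMTOR4* (0.030) -0.075 offset, -0.085 block and offset, -0.046 union offset; *EIF4EBP1* (0.083) -0.039 offset, -0.046 block and offset, -0.032 union offset; *FOXO4* (0.18) -0.010 to 0.27 with 1 library left out; *FOXO6* (-0.011) 0.0016 DESeq2, 0.00087 RLE, 0.044 upper-quartile, 0.011 the 10-count filter, 0.030 2 groups only, -0.12 to 0.074 with 1 library left out; *RPTOR* (-0.086) -0.20 to 0.0042 with 1 library left out. Log2 fold changes that changed sign in CTCFL-KD vs Control were *PIK3R1* (0.27) -0.069 to 0.62 with 1 library left out; *INPP5J* (0.34) -0.029 union offset; *FOXO6* (0.57) -0.0040 block and offset. Log2 fold changes that changed sign in CTCFL-KD vs CTCFL-OE were *PIK3CA* (-0.24) -0.47 to 0.0055 with 1 library left out; *PIK3R1* (0.20) -0.14 to 0.55 with 1 library left out; *FOXO1* (0.064) -0.094 to 0.23 with 1 library left out; *FOXO3* (0.18) -0.010 to 0.39 with 1 library left out; *FGFR1* (0.092) -0.022 offset, -0.024 block and offset, -0.023 to 0.18 with 1 library left out; *FN1* (-0.31) -0.67 to 0.033 with 1 library left out; *SOX4* (0.048) -0.012 no filter, -0.057 offset, -0.056 block and offset, -0.065 union offset, -0.11 to 0.22 with 1 library left out; *LIMK2* (0.026) -0.0028 DESeq2, -0.0035 RLE, -0.0058 upper-quartile, -0.040 no filter, -0.077 offset, -0.078 block and offset, -0.10 union offset, -0.017 to 0.089 with 1 library left out; *IFFO2* (-0.034) -0.13 to 0.065 with 1 library left out.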
